A study of Mus musculus with 14 samples.

Results

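The subject here is the genotype by day interaction in mouse paws. For each gene it is the difference between Krt9-/- and wild-type (WT) paws on postnatal day 3 minus the same difference on postnatal day 0. All 14 of the 14 libraries of the series enter it, and 21619 of 56691 gene identifiers had enough reads to be tested. RNA came from whole paws by Trizol extraction, and libraries were made after removal of ribosomal RNA. The 4 groups were 4 WT and 2 Krt9-/- (null) libraries on day 0 (P0) and 5 WT and 3 null libraries on day 3 (P3). The library totals ran from 28947715 to 41004173 counts. The labels name neither the strain nor the type of null allele. Nor do they say whether each library is a separate animal, so p-values measure the spread between these libraries.

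Krt9 encodes a type I keratin made almost only in the suprabasal epidermis of palms and soles, and mutations in it cause thickened palmoplantar skin. Keratinocytes that leave the basal layer replace Krt5 and Krt14 by Krt1 and Krt10. They then cross-link proteins such as loricrin into a cornified envelope that is sealed by ceramides and cholesterol. A positive interaction says that the null paw gained on the WT paw between the days, and a negative one that it lost. In RNA of whole paws, fewer cells of a type and less RNA per cell cannot be told apart.

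The targeted gene was checked in every library first. Krt9 (ENSMUSG00000051617.4) stood at 2.09, 4.59, 7.61 and 5.59 CPM (the count scaled to a fixed library total, after TMM scaling) in P0 WT and at 6.08 and 5.32 CPM in P0 null. On P3 it stood at 32.9, 83.0, 39.8, 74.0 and 39.8 CPM in WT and at 25.1, 7.74 and 11.5 CPM in null. Krt9 thus did not separate the genotypes on P0, and the P3 groups did not overlap. Its interaction was -2.05 (SE 0.72, log2) with an adjusted p of 0.583 (edgeR). Krt19, another type I keratin gene, separated all null from all WT libraries, with 48.9 to 209 CPM in null and 0.865 to 1.95 CPM in WT. Krt19 had an interaction of -1.09 (SE 0.49), with 99.6 and 209 CPM in P0 null and 48.9, 68.1 and 92.2 CPM in P3 null.

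Some libraries stood apart. P0 WT replicate 4 is labelled female, but had Xist at 0.181 CPM and Ddx3y at 0.155 CPM. The 6 other libraries labelled female had Xist between 783 and 900.2 CPM, and the 7 labelled male had Ddx3y between 69.7 and 128 CPM. The deposited columns also run in 2 alphabetical blocks, A with 8 libraries and B with 6, which the labels do not explain. With the block as a term, 5017 of 21619 genes differed between blocks at an adjusted p under 0.05 (edgeR). Block A holds P0 WT 1 to 3, P0 null 1, P3 WT 2 to 4 and P3 null 2, and block B holds the rest, including P0 WT 4. Results are therefore given for all libraries, with values within each block, with the block as a term or without P0 WT 4 beside the main ones. Within block A each null group is 1 library, and within block B each P0 group is 1 library. The lone library is then taken to vary like the others. The fits within a block have no sex term, unlike the main fit. In block A the P0 null library is labelled male and the P3 null library female, so sex and day are mixed there.

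No single gene passed the test of the interaction in edgeR's quasi-likelihood fit with sex as a term (0 of 21619, smallest adjusted p 0.107). At an unadjusted p under 0.05, 1007 genes (4.66%) were positive and 637 (2.95%) negative. DESeq2 on the same libraries called 79 genes higher (0.365%) and 8 lower (0.037%). With the column block as a term edgeR called 7 genes (0.0324%), all higher, among them Tmem79, Lor, Crybg2, Ppp1r13l and Evpl. Without P0 WT 4 it called 45 higher (0.212%) and 2 lower (0.00942%), and with both changes 1039 higher (4.89%) and 452 lower (2.13%). With both changes P0 WT holds only block A libraries. The P0 genotype difference then rests on a block difference estimated in the other groups and taken as equal on both days. The 7 block-term genes were all called again with both changes, and 6 of them both without P0 WT 4 and by DESeq2. These fits share all libraries but P0 WT 4, so the repeated calls are not independent. Within block A alone it called 20 higher (0.0922%) and 6 lower (0.0277%), and within block B alone 13 higher (0.0579%) and 1 lower (0.00445%). Leaving out P3 null 2 gave 13 higher (0.0599%), and litter within day as a random block in limma 3 higher (0.0139%). Scaling by library size alone gave 1 higher (0.00463%), and dropping the low-count filter 571 higher (1.55%) and 46 lower (0.125%) of 36822. Without the sex term the smallest adjusted p was 0.846 and no gene was called, and coding P0 WT 4 as male gave 0.889 and no call.

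Among genes with a small unadjusted p, the fitted genotype difference mostly had opposite signs on P0 and P3. Of the 1007 genes with a positive interaction at an unadjusted p under 0.05, 986 (97.9%) were below WT in null paws on P0 and above WT on P3. Of all genes tested, 25.2% had that pattern. In 775 of the 1007 (77.0%) the WT level was lower on P3 than on P0 while the null level was higher, against 16.2% of all genes. Of the 637 negative genes, 613 (96.2%) were above WT on P0 and below it on P3, against 26.9% of all genes. The interaction itself favours such crossings, so these shares are a description.

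**Figure D1:**
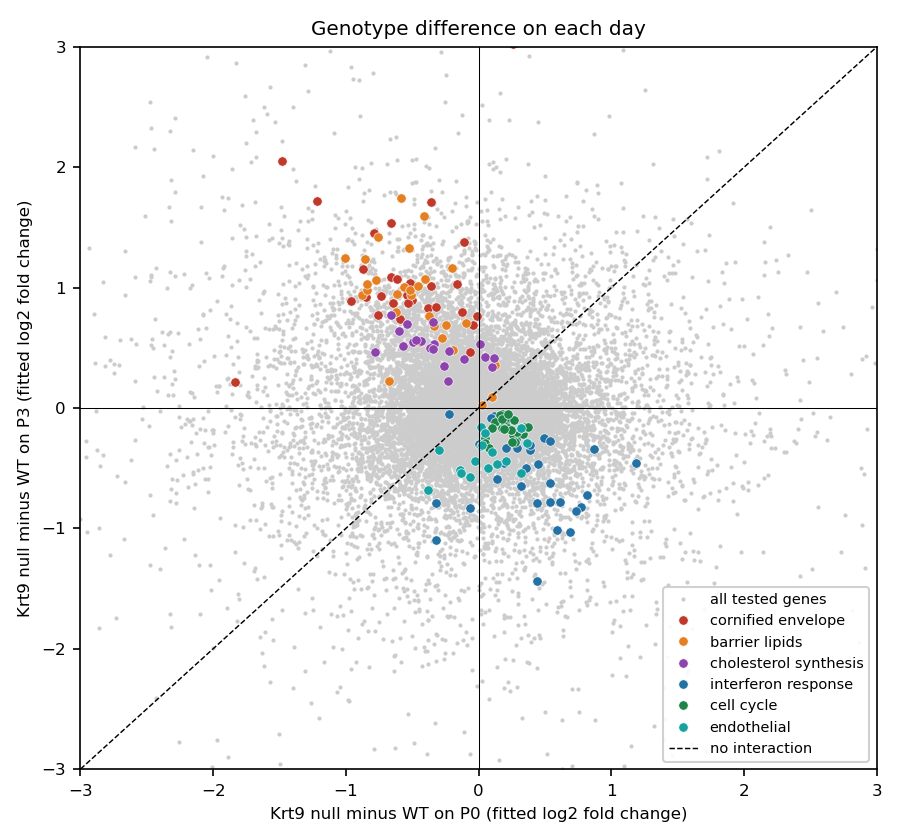
Fitted log2 difference between Krt9 null and WT paws on P0 (x axis) and on P3 (y axis), one point per gene. Grey points are all tested genes, of which 171 lie outside the range shown; coloured points are members of 6 gene lists, of which 1 lies outside, and genes on the dashed line have no interaction. Cornified envelope, barrier lipid and cholesterol genes sit mostly at the upper left, interferon and cell cycle genes mostly at the lower right.

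Proteins of the outer, cornified layers led the positive side. Nccrp1 (ENSMUSG00000047586.5), a protein related to F-box proteins, stood at 247, 210, 256 and 95.7 CPM in P0 WT and at 114 and 77.9 CPM in P0 null. On P3 it stood at 90.0, 75.3, 79.5, 57.0 and 43.4 CPM in WT and at 170, 94.0 and 107 CPM in null. On P0 the WT libraries other than replicate 4 were above both null libraries, and on P3 every null library was above every WT library. The interaction was 2.07 (SE 0.30, log2), from a P0 difference of -1.05 (SE 0.23) and a P3 difference of 1.02 (SE 0.19). Its adjusted p was 0.107 in edgeR, 0.00219 without P0 WT 4 and 0.0336 with litter as a random block in limma. Within blocks the value was 1.48 in A and 1.35 in B.

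Tmem79, which encodes a membrane protein of the lamellar granule system whose loss causes matted hair and dermatitis in mice, followed the same course at a lower level. It stood at 25.5, 18.5, 22.1 and 10.6 CPM in P0 WT and at 14.1 and 7.03 CPM in P0 null. On P3 the WT libraries had 14.5, 13.3, 14.3, 9.87 and 9.64 CPM and the null libraries 26.3, 16.4 and 21.9 CPM. The P3 groups did not overlap, and on P0 only WT replicate 4 fell into the range of the null libraries. The interaction was 1.87 (SE 0.28), with an adjusted p of 0.107 in edgeR, 0.0373 with the block term and 0.0407 with litter as a random block in limma. The block values were 1.05 (A) and 1.58 (B), neither of them called.

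Lor encodes loricrin, the main protein of the cornified envelope. Its levels were 10510, 7822, 10840 and 4294 CPM in P0 WT and 4922 and 3487 CPM in P0 null. On P3 they were 5061, 3730, 4403, 3571 and 3535 CPM in WT and 8938, 5968 and 5898 CPM in null. WT paws thus had less Lor on P3 than 3 of the 4 had on P0, and each P3 null library had more than either P0 null library. The interaction was 1.86 (SE 0.30), with an adjusted p of 0.119 in edgeR, 0.0373 with the block term and 0.0336 with litter as a random block in limma. It was 1.61 within block A, called there with an adjusted p of 0.0449, and 1.09 within block B, not called.

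Crybg2, a gene of the beta-gamma crystallin family, and Evpl, which encodes the envelope scaffold protein envoplakin, were also called with the block term. Crybg2 stood at 65.6, 56.9, 68.8 and 35.3 CPM in P0 WT and 39.9 and 31.5 CPM in P0 null, and at 24.7 to 37.6 CPM in P3 WT and 38.3 to 53.8 CPM in P3 null. Its interaction was 1.32 (SE 0.22). Evpl stood at 270, 207, 281 and 146 CPM in P0 WT and 203 and 103 CPM in P0 null, and at 131 to 184 CPM in P3 WT and 189 to 280 CPM in P3 null. The P3 groups did not overlap for either gene, and the interaction of Evpl was 1.33 (SE 0.24). Block A gave 1.03 for Crybg2 and 0.56 for Evpl, and block B 0.77 and 1.30. Ppp1r13l, a regulator of p53 found at desmosomes, had 0.90 (SE 0.29); its adjusted p was 0.0373 with the block term and 0.53 without it.

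The other leading positive genes were called neither in edgeR's main fit, which called no gene, nor with the block term. They were Eps8l2 at 1.39 (SE 0.26), Tgm3, the epidermal transglutaminase that cross-links envelope proteins, at 1.52 (SE 0.30), and Clmn at 1.20 (SE 0.24). Suprabasin (Sbsn), secreted by suprabasal cells, had 1.69 (SE 0.34), and ladinin (Lad1), an anchoring protein of the basement membrane, had 1.34 (SE 0.28). DESeq2 called Eps8l2, Tgm3, Clmn, Sbsn and Lad1, with adjusted p of 0.000946, 0.00398, 0.00469, 0.00276 and 0.00639. Without P0 WT 4 edgeR called Eps8l2, Sbsn and Lad1, with adjusted p of 0.0259, 0.0438 and 0.00478. Tgm3 differed from the others in its WT course: WT paws had 63.1 to 120 CPM on P0 and 85.6 to 124 CPM on P3, and null paws 42.4 and 74.1 CPM on P0 and 231, 122 and 224 CPM on P3. Block B alone called Tgm3, at 1.46 with an adjusted p of 0.0415.

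**Figure D2:**
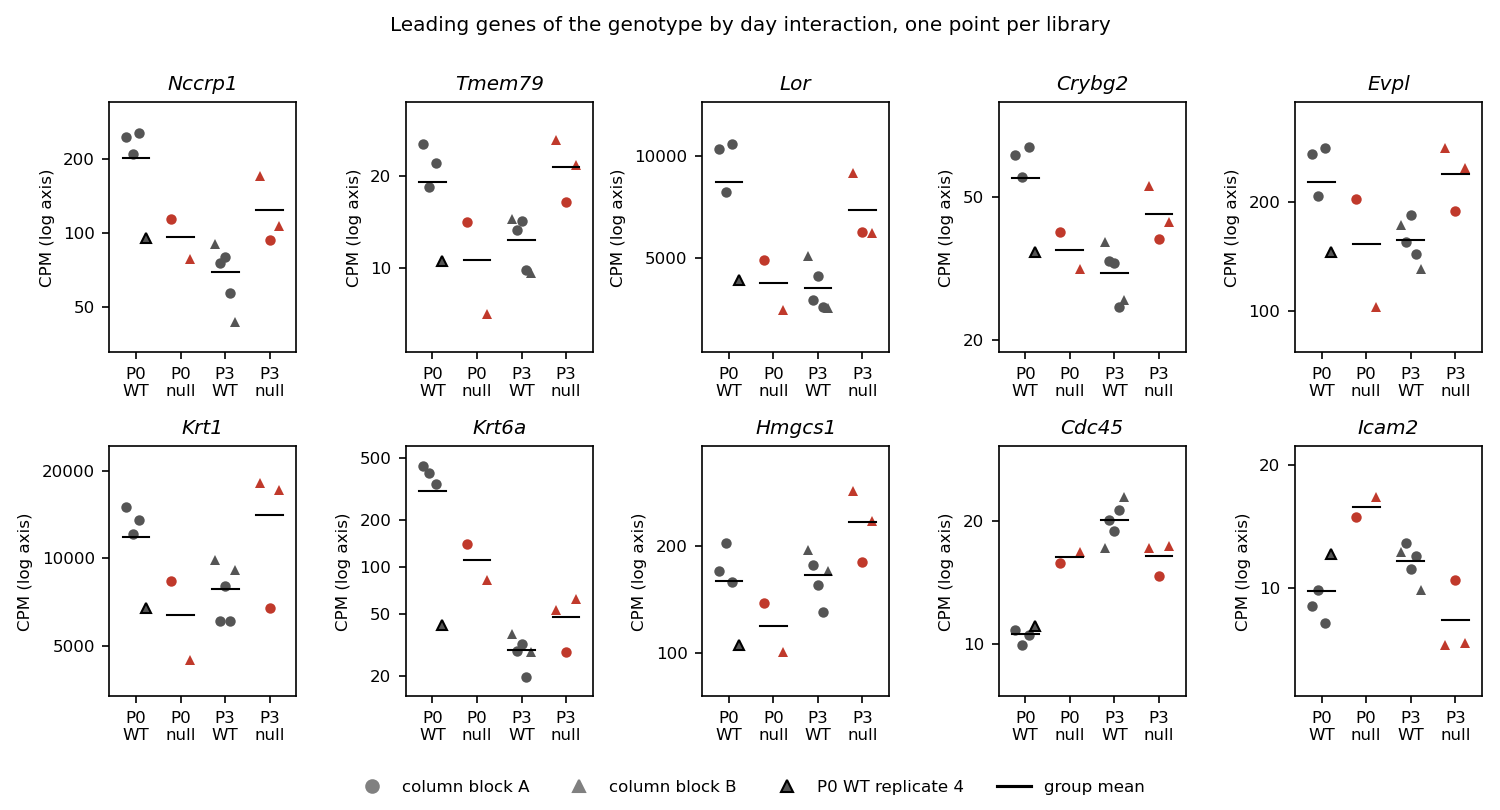
CPM on a log axis of 10 genes in each of the 14 libraries, grouped by day and genotype; circles are column block A, triangles block B, the outlined triangle is P0 WT replicate 4, and bars are group means. In the 5 genes of the upper row the other P0 WT libraries lie above the P0 null libraries, and every P3 null library lies above every P3 WT library. For Cdc45 and Icam2 both P0 null libraries lie above every P0 WT library, and on P3 the groups overlap.

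The cornified envelope list held 29 genes, all tested. All 29 had a positive interaction, with a median of 1.53 against -0.0184 over all genes tested. Of them, 16 passed an unadjusted p of 0.05 upward and 0 downward. Over all genes tested these shares were 4.66% upward and 2.95% downward, which hold for the lists below too. In 28 of the 29 the null paw was below WT on P0 and above it on P3. The mean level of the list, as log2(CPM + 1), was 8.29, 8.06, 8.11 and 6.93 in P0 WT and 7.54 and 7.16 in P0 null. On P3 it was 7.85, 6.93, 6.99, 6.67 and 7.42 in WT and 8.51, 6.87 and 8.45 in null. P3 null 2, the only P3 null library of block A, lay within the WT range, and the other 2 lay above it. Block B was also higher in P3 WT, at 7.85 and 7.42 against 6.67 to 6.99 in block A. P3 null 2 lay within that block A range. With the block term the median was 1.53, and within blocks it was 0.64 in A and 0.64 in B. The block term takes the block difference as equal on both days, so it cannot adjust for one that changes sign. For this list block B lay below block A on P0 and above it on P3, in both genotypes. Block term and no P0 WT 4 together gave 15 called members, all higher, where 4.89% of all genes tested were called higher. In that fit, here and for the lists below, P0 WT has no block B library.

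The promoters of 2 of these genes are shown because 11 of the 21 cornified envelope genes with a RefSeq promoter held the AP-1 motif TGANTCA. That is 52.4%, against 7.26% of the tested genes with a promoter and 7.81% of all 32851 promoters of the same length. AP-1 is the Fos and Jun family of transcription factors, which acts in keratinocyte differentiation. The window ran from 250 bases before to 50 after the start site, and either strand counted. The N of the pattern allows any base, and it was G in Lor and A in Sbsn. The stretches below are from RefSeq on GRCm38.p6, 5′ to 3′ on the gene's strand, with the motif in capitals. They end before the start site.
Lor, chr3:92083154-92083220, minus strand: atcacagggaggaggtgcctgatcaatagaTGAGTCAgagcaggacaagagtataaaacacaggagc
Sbsn, chr7:30751322-30751388, plus strand: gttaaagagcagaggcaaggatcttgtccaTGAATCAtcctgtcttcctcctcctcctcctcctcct
The Lor motif begins 48 bases before the start site and the Sbsn motif 119 bases before it. The members with the motif had a median interaction of 1.69 and the 10 without it 1.54. Of 18 late cornified envelope genes with a promoter, 0 held the motif in this window, and that list had a median of 1.23.

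The late cornified envelope (Lce) genes code for small proteins added last to the envelope. Of 19 tested members all 19 were positive, 12 of them at an unadjusted p under 0.05. Lce1a2 had 1.11 (SE 0.40) and Lce1c 1.00 (SE 0.40), and P0 WT replicate 4 had 155 CPM of Lce1c where the other P0 WT libraries had 355 to 387 CPM. One member had no count in any library of a group; without it the median was 1.21. Block medians were 0.42 in A and 0.31 in B. The Sprr2 genes, small proline-rich cross-bridging proteins, had a median of 2.76 over 12 members, with 11 positive and 6 at an unadjusted p under 0.05, and block medians of 0.83 (A) and 1.44 (B). Sprr2d stood at 107, 103, 48.9 and 16.1 CPM in P0 WT, 15.7 and 27.2 CPM in P0 null, 0.531 to 1.98 CPM in P3 WT and 1.12 to 11.5 CPM in P3 null. Sprr2d was thus low in every P3 library, and its interaction of 3.76 (SE 1.24) rests on small levels there. Members of the Lce1 and Sprr2 families are near copies of each other, so how reads were divided among them is uncertain.

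Barrier lipid genes make and move the ceramides and fatty acids between cornified cells. Of 29 members 27 were positive, 17 at an unadjusted p under 0.05 and 0 below, and the median was 1.48. Aloxe3, a lipoxygenase of ceramide processing, stood at 105, 87.0, 99.8 and 64.7 CPM in P0 WT and 62.3 and 60.6 CPM in P0 null. On P3 it stood at 36.1 to 58.4 CPM in WT and at 113, 48.4 and 88.5 CPM in null. The interaction of Aloxe3 was 1.45 (SE 0.32), of the fatty acid hydroxylase gene Cyp4f39 1.81 (SE 0.40), and of the cholesterol sulfotransferase gene Sult2b1 1.42 (SE 0.32). Slc27a4, a fatty acid transporter, had 1.01 (SE 0.25). Block medians were 0.62 in A and 0.59 in B, and 21 members were called higher with the block term and without P0 WT 4, against 4.89% of all genes.

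Keratins differed in their values by layer. Of 9 differentiation keratins 8 were positive, with a median of 1.38 (0.61 in block A, 0.88 in B) and 5 at an unadjusted p under 0.05. Krt1, the main type II keratin of suprabasal cells, stood at 15040, 12170, 13590 and 6768 CPM in P0 WT and 8330 and 4453 CPM in P0 null. On P3 it stood at 9891, 6071, 8042, 6065 and 9111 CPM in WT and at 18270, 6768 and 17180 CPM in null. Both P3 null libraries of block B were above every WT library, and the block A library was within the WT range. The block B libraries of P3 WT, at 9891 and 9111 CPM, were above those of block A. The interaction was 1.85 (SE 0.47) for Krt1 and 1.86 (SE 0.52) for its partner Krt10. Block B alone called Krt1 at 1.50 and Krt10 at 1.53, both with an adjusted p of 0.0469, and block A alone gave 0.73 and 0.61, not called. Krt80 had 1.38 (SE 0.31) and Krt78 1.49 (SE 0.50). Krt2, a keratin of late suprabasal cells, had 1.13 (SE 0.55) over all libraries, -0.57 in block A and 2.43 in block B.

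Basal genes had smaller values, and the difference from the suprabasal lists was not tested. The list of basal keratins and adhesion genes had a median of 0.32 over 12 members, and 0 passed an unadjusted p of 0.05 in either direction. With the block term and without P0 WT 4, 2 members were called higher, against 4.89% of all genes. Krt5 had 0.41 (SE 0.36) and Krt14 0.41 (SE 0.34). Krt5 stood at 2125 CPM in P0 WT replicate 4 and at 3697 to 3920 CPM in the other P0 WT libraries. The stress keratins, which keratinocytes make after injury, had a median of 2.02 over 5 members, of which 3 were positive and 1 passed an unadjusted p of 0.05. Krt6a stood at 444, 400, 338 and 42.6 CPM in P0 WT, 141 and 82.5 CPM in P0 null, 19.9 to 37.2 CPM in P3 WT and 28.7 to 62.4 CPM in P3 null. Krt6a had 2.33 (SE 0.86), 1.58 in block A and -0.15 in block B, where P0 WT replicate 4 is the P0 WT library. Krt6b had 3.39 (SE 1.54), Krt16 2.02 (SE 1.14) and Krt75 -0.71 (SE 0.87). The remaining member, the most abundant of the list, stood at 291 to 552 CPM and had -0.10 (SE 0.30).

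Junction, protease and regulator genes of the epidermis had smaller values in the same direction. All 17 epidermal junction genes were positive, with a median of 0.93 (0.56 in block A, 0.47 in B) and 11 at an unadjusted p under 0.05. Plakoglobin (Jup), shared by desmosomes and adherens junctions, had 1.44 (SE 0.31), plakophilin 3 (Pkp3) had 1.13 (SE 0.25) and desmoplakin (Dsp) had 1.55 (SE 0.41). All 17 genes of desquamation, the proteases and inhibitors that release surface cells, were positive, with a median of 0.92 (0.33 in each block) and 6 at an unadjusted p under 0.05. Klk9 had 2.84 (SE 0.70) and Klk5 1.29 (SE 0.50), while Klk7 had 1.27 (SE 0.65) over all libraries and -0.00058 in block B. Of 18 epidermal transcription factors 16 were positive, with a median of 0.65 (0.24 in each block) and 8 at an unadjusted p under 0.05. With the block term and without P0 WT 4, 13 junction, 9 desquamation and 11 transcription factor genes were called higher, against 4.89% of all genes. The differentiation regulators Grhl3, Zfp750, Ovol1 and Klf4 had 1.38 (SE 0.42), 1.55 (SE 0.42), 1.18 (SE 0.37) and 1.34 (SE 0.51).

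Markers of the epithelium as a whole had values of the same sign. Of 16 epithelial markers 15 were positive, with a median of 0.89 (0.41 in block A, 0.35 in B). An unadjusted p under 0.05 was reached by 5 of the markers. With the block term and without P0 WT 4, 10 markers were called higher, against 4.89% of all genes. Their mean level, as log2(CPM + 1), ran from 7.43 to 8.27 in P0 WT, from 7.57 to 7.87 in P0 null, from 7.41 to 7.97 in P3 WT and from 7.57 to 8.45 in P3 null. Sfn, a 14-3-3 protein of stratified epithelium, had 1.42 (SE 0.38), E-cadherin (Cdh1) had 1.07 (SE 0.30), and Perp, a desmosomal membrane protein, had 1.16 (SE 0.68). The part of the epithelial share in the epidermal results was not tested. Fibroblast collagens had a median of -0.11 over 13 genes, macrophage genes -0.12 over 13 and fast muscle genes 0.43 over 17, with 0 members of each at an unadjusted p under 0.05. Erythroid genes had a median of 0.99 over 10, with 8 positive and 0 at an unadjusted p under 0.05, and it was 1.66 in block A and -0.75 in B.

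**Figure D3:**
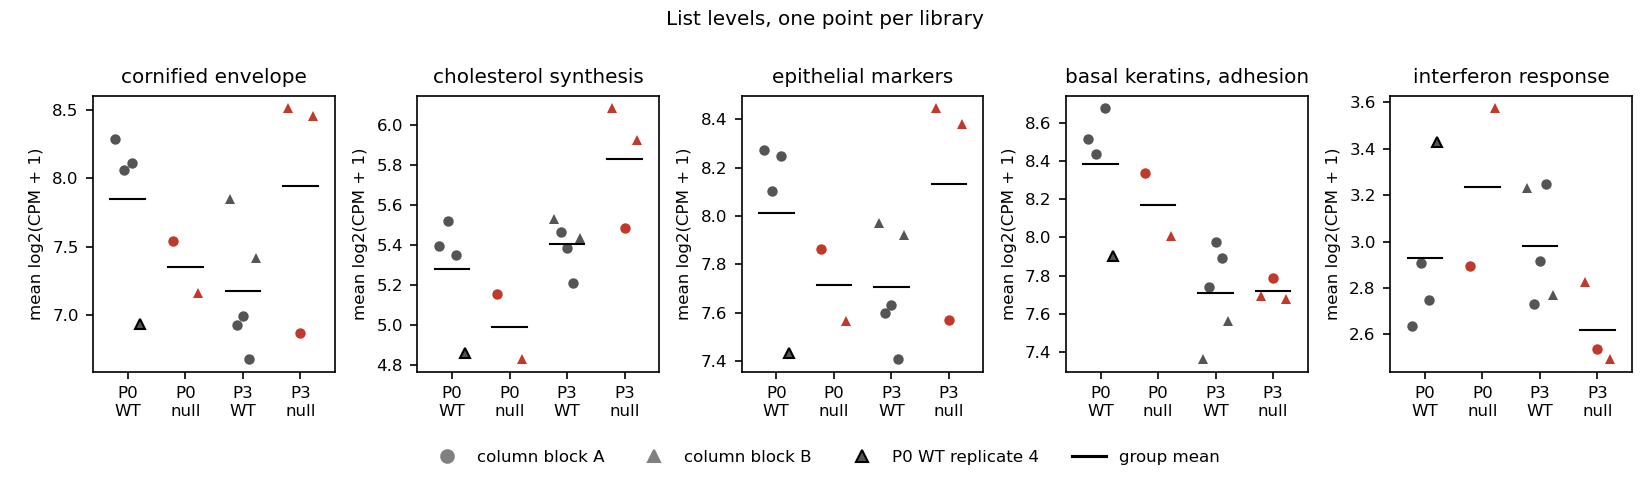
Mean log2(CPM + 1) of 5 gene lists in each of the 14 libraries, grouped by day and genotype; circles are column block A, triangles block B, the outlined triangle is P0 WT replicate 4, and bars are group means. In the cornified envelope and epithelial panels the P0 WT libraries other than replicate 4 and the 2 block B null libraries of P3 are high. There the block B libraries of P3 WT also lie above those of block A. In the basal panel the P3 WT and P3 null libraries overlap.

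Cholesterol synthesis genes, which supply the epidermal barrier and are switched on together by the SREBP2 transcription factor, were all positive. The 20 genes had a median of 0.87, with 14 at an unadjusted p under 0.05 and 0 below. Hmgcs1, the enzyme that makes HMG-CoA for the pathway, stood at 170, 204, 158 and 106 CPM in P0 WT and 138 and 101 CPM in P0 null. On P3 it stood at 195, 178, 155, 131 and 170 CPM in WT and at 286, 181 and 235 CPM in null. Hmgcs1 thus hardly differed between the days in WT, at 0.02 (log2), and was 1.02 higher on P3 in null. Its interaction was 1.00 (SE 0.29). Mvd had 1.08 (SE 0.24), Sqle 1.24 (SE 0.30) and Dhcr7 1.05 (SE 0.24). Over the 20 genes the median day difference was 0.0104 in WT and 0.94 in null. For the cornified envelope genes it was -0.63 in WT and 0.95 in null, and the difference between the lists was not tested. Block medians were 0.37 in A and 0.54 in B. With the block term and without P0 WT 4, 14 genes were called higher, against 4.89% of all genes.

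The 12 SREBP pathway regulators and uptake genes had a median interaction of 0.19. Of them, 3 passed an unadjusted p of 0.05 upward, against 4.66% of all genes. Insig1, which holds SREBP back when sterols are plentiful, had 0.71 (SE 0.31), 0.82 within A and -0.02 within B. The sterol regulatory element TCACNCCAC, on either strand, was found in 1 of the 15 cholesterol synthesis genes with a promoter, against 1.51% of tested genes. That gene is Hmgcs1, and the stretch is shown with the motif in capitals, which begins 137 bases before the start site.
Hmgcs1, chr13:119690184-119690252, plus strand: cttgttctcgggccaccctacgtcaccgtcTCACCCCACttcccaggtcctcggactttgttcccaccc

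**Figure D4:**
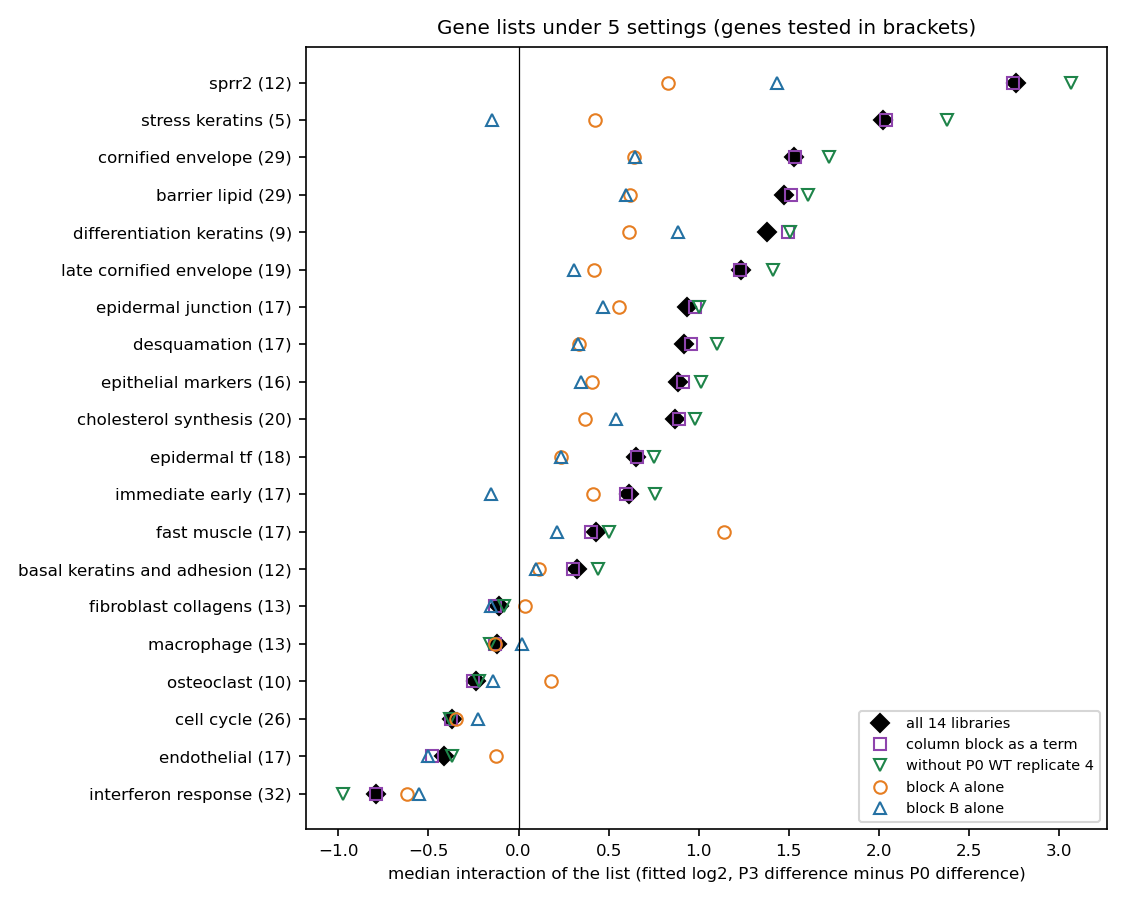
Median interaction (fitted log2) of 20 gene lists under 5 settings, with the number of tested genes in brackets; each symbol is a setting. With all 14 libraries, with the block term and without P0 WT replicate 4 the epidermal lists lie well above 0, and within either block most lie closer to 0, with stress keratins and immediate early genes below 0 in block B.

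Genes of the interferon response, cell division and blood vessels were on the negative side. Of 32 interferon response genes 31 were negative, with a median of -0.79 and 14 at an unadjusted p under 0.05, and 28 were above WT on P0 and below it on P3. Stat2, a transducer of interferon signals, stood at 15.7, 16.1, 17.4 and 25.9 CPM in P0 WT and 22.0 and 25.8 CPM in P0 null. Its P3 levels were 15.3, 19.5, 21.4, 22.9 and 20.9 CPM in WT and 11.8, 19.6 and 13.9 CPM in null. The P3 groups of Stat2 overlapped. Its interaction was -0.86 (SE 0.27), that of Parp14 -0.97 (SE 0.37) and of Ifit3, an antiviral RNA-binding protein, -1.40 (SE 0.53). Ifit3 stood at 4.16 and 15.0 CPM in P0 null and at 3.82 to 9.24 CPM in P0 WT. Leaving out a library moved the Ifit3 interaction between -1.94 and -0.45. Ifi27, the most abundant member, had -0.18 (SE 0.23). Block medians were -0.62 in A and -0.55 in B, and 5 genes were called lower with the block term and without P0 WT 4, where 2.13% of all genes were. P0 WT replicate 4 had a list level of 3.43, where the other P0 WT libraries had 2.64 to 2.91. The P0 null libraries had 2.896 in block A, within that range, and 3.575 in block B.

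The interferon-stimulated response element, searched as GAAA, any 2 bases and GAAA, was found on either strand in 13 of the 22 interferon genes with a promoter (59.1%), against 3.79% of tested genes and 3.44% of all promoters. In Ifit3 and Stat2 it lies on the other strand, so the capitals read as its reverse complement.
Stat2, chr10:128270248-128270315, plus strand: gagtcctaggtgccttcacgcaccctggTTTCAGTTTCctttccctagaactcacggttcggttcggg
Ifit3, chr19:34583343-34583446, plus strand: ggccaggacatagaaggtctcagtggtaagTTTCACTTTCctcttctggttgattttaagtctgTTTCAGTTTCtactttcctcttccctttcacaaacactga
Members with the motif had a median interaction of -0.86 and the 9 without it -0.70. Among all tested genes with the motif, the 13 list members included, 7.25% were negative at an unadjusted p under 0.05, against 3.02% without it. Their median interaction was -0.084, against -0.013 without it. The positive shares were 7.68% with the AP-1 motif and 4.93% without it. For the sterol element they were 7.21% and 5.09%. The part of these motifs in the results was not tested.

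Cell cycle genes were all negative, though by less. The 26 genes had a median of -0.37 (-0.35 in block A, -0.23 in B). Of them, 7 passed an unadjusted p of 0.05 downward, against 2.95% of all genes. Mcm7, a helicase subunit of replication, had -0.49 (SE 0.15), Bub1b -0.51 (SE 0.18) and Tyms -0.53 (SE 0.22), while Mki67 had -0.34 (SE 0.21). Cdc45, a part of the replicative helicase, led the negative side by p. It stood at 10.8, 9.93, 10.5 and 11.1 CPM in P0 WT and at 15.8 and 16.8 CPM in P0 null, and these groups did not overlap. Its P3 levels were 17.2 to 22.8 CPM in WT and 14.6 to 17.3 CPM in null, where they did by a little. Its interaction was -0.93 (SE 0.20), with an adjusted p of 0.354 in edgeR and 0.00539 in DESeq2, and the block values were -1.05 (A) and -0.82 (B).

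Endothelial genes were negative in 17 of 17, with a median of -0.41. Of them, 6 passed an unadjusted p of 0.05 downward, against 2.95% of all genes. The median was -0.12 within block A and -0.50 within block B. Icam2, an adhesion protein of endothelium and platelets, stood at 9.01, 9.89, 8.18 and 12.1 CPM in P0 WT and 14.9 and 16.6 CPM in P0 null, with no overlap. Its P3 levels were 9.88 to 12.8 CPM in WT and 7.22, 10.5 and 7.34 CPM in null. The interaction of Icam2 was -1.21 (SE 0.26). The receptor genes Tek and Ramp2 had -0.65 (SE 0.20) and -0.65 (SE 0.21), Pecam1 -0.57 (SE 0.23) and Emcn -0.51 (SE 0.21). The endothelial list level was 4.77, 5.52 and 4.90 in P3 null and 5.23 to 5.70 in P3 WT, so 2 of the 3 null libraries lay below the WT range. Both are of block B, and the block B libraries of P3 WT, at 5.30 and 5.23, were the lowest WT ones. For Emcn the block values were -0.02 (A) and -0.79 (B).

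The other leading negative genes were Psmb10, a subunit of the immunoproteasome, at -0.83 (SE 0.20), the interferon-induced GTPase Irgm1 at -1.02 (SE 0.26), Slfn3 at -1.42 (SE 0.34) and Slfn9 at -1.06 (SE 0.28). Zfp128 had -1.59 (SE 0.39), Cep97 -1.01 (SE 0.27), Tspo -0.70 (SE 0.18), Phf11c -1.68 (SE 0.46), Ticam2 -1.70 (SE 0.47) and Olfr558 -1.40 (SE 0.36). Slfn3, Zfp128, Phf11c, Ticam2 and Olfr558 stood below 7 CPM in every library. None of these was called by edgeR over all libraries, and Ticam2 was called without P0 WT 4 (adjusted p 0.0389). DESeq2 called Slfn3, Zfp128, Psmb10 and Olfr558, with adjusted p of 0.0132, 0.0187, 0.0183 and 0.0351.

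Heat shock and immediate early genes had medians closer to 0 than the cornified envelope list. Of 15 heat shock genes 9 were positive, with a median of 0.20 and 4 at an unadjusted p under 0.05, among them Hspb1, a small heat shock protein of keratinocytes, at 1.23 (SE 0.29) and Hspa1a at 0.84 (SE 0.20). Hspa1a has a near-identical copy, so its share of reads is uncertain. All 17 immediate early genes were positive, with a median of 0.61 and 3 at an unadjusted p under 0.05, against 4.66% of all genes. Block A gave a median of 0.41 where block B gave -0.15. Myc had 0.75 (SE 0.29) and Junb 0.96 (SE 0.39). Junb stood at 46.5 CPM in P0 WT replicate 4 and at 124 to 128 CPM in the other P0 WT libraries.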

How the data were processed

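Whole-paw RNA was sequenced after ribosomal depletion. Per the submitters' processing notes the authors used STAR 2.7.10a, featureCounts and the GRCm39 build, and deposited raw counts per gene in 1 table of 14 columns. The notes also list edgeR and limma, with no role given. Identifiers were matched to symbols for 52073 of 56691 genes; the 4618 others hold 0.623% of counts.

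Groups came from the day and genotype labels. The interaction was fitted with edgeR 4.0.16 (quasi-likelihood, TMM scaling, filterByExpr by group, terms for group and labelled sex, 9 residual degrees of freedom), with Benjamini-Hochberg adjustment over all 21619 genes and calls at 0.05, two-sided. The method was tested on simulated libraries drawn without block, sex or litter differences. That test therefore does not cover the block difference seen here. CPM use the scaled library size. Alternatives used DESeq2 1.42.0, limma 3.58.1, other scalings and filters, the column block, the litter and leaving out each library.

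The labels give a litter number. Within a day it is shared by P0 WT 1 and P0 null 1, and by P3 WT 2 and P3 WT 3. Their residual correlations were -0.182 and -0.0495. In groups this small the fit itself pushes residuals apart, and P0 null 1 and P0 null 2 stood at -1. These correlations therefore cannot show whether litter mates resemble each other. Whether a number seen on both days is 1 litter is not given.

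Named genes were, in each direction, the 12 with the smallest unadjusted p and at least 2 CPM in the highest group, genes called with the block term, up to 4 members of each list by p with its most abundant one, and keratins. Genes without a proper name were left out. Some genes that the rule names are not reported here. The members and lists were chosen with earlier results of these data known. Promoters are from RefSeq on GRCm38.p6, which differs from the build of the counts, so no coordinates are given for the counted genes.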

Additional observations from a re-analysis of the deposited data

Results flagged for a closer look

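In groups of 4 or 5 libraries, 240 sets of values (named genes and list levels) were examined for a library far from the others of its group. The gap was large in 22 sets, of which 14 concern P0 WT replicate 4. Chance marks about 1 in 20 sets, and the sets share libraries. The part of this library in the results was not tested beyond leaving it out.

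P0 WT replicate 4 was low in epidermal genes. It had 2120 CPM of Krt5 against 3700 to 3920 in the other 3 libraries, 155 of Lce1c against 355 to 387, and 239 of Klf4 against 598 to 620. It also had 48.5 CPM of Sqle against 90.2 to 96.2 and 46.5 of Junb against 124 to 128. Its list levels, as mean log2(CPM + 1), were 6.93 for the cornified envelope (others 8.06 to 8.29) and 5.49 for barrier lipids (6.33 to 6.47). They were 5.17 for SREBP regulators and uptake (5.49 to 5.53) and 4.15 for EGF ligands and receptors (4.77 to 4.84). It was high in Ticam2 with 1.99 CPM (0.572 to 0.79), Stat2 with 25.9 (15.7 to 17.4), Mki67 with 232 (201 to 205) and Tek with 49.5 (38.6 to 40.3). Its mast cell list level was 6.75, against 5.74 to 5.88.

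P0 WT replicate 3 had a melanocyte list level of 2.13 (others 1.86 to 1.9) and a level of 7.8 for abundant and mitochondrial RNAs (7.99 to 8.02). P3 WT replicate 1 was high in Sbsn with 538 CPM (329 to 381), Lce1a2 with 332 (202 to 238) and Klf4 with 461 (218 to 266), and low in Slfn9 with 26.7 (40.2 to 42.4). P3 WT replicate 4 had 85.6 CPM of Tgm3 (114 to 124). P3 WT replicate 2 had a fatty acid synthesis list level of 5.96 (5.44 to 5.56).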

How the results depend on the processing

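The count of called genes depended on the setting. Against 0 higher and 0 lower, edgeR called 1 higher with library size alone as scaling, 571 higher and 46 lower with no low-count filter (all 617 among genes the filter keeps), 7 higher with the column block as a term, 20 higher and 6 lower in block A alone and 13 higher and 1 lower in block B alone. The block term without P0 WT 4 gave 1039 and 452, and DESeq2 79 and 8. The cause was not tested. Leaving out 1 library gave 0 to 45 higher and 0 to 2 lower: 45 and 2 without P0 WT 4, 13 and 0 without P3 null 2, and 0 without any other. With litter within day as a random replicate block (consensus correlation 0.555) limma called 3 higher, Nccrp1, Lor and Tmem79, and with litter number as a fixed block edgeR called 0 on 2 residual degrees of freedom. Other scalings, filters and limma voom called 0. Scaling by library size alone moved the median of all genes from -0.0184 to -0.182. The fit with no sex term called 0. So did 2 fits chosen after seeing the data, P0 WT 4 coded male, and no sex term with P0 WT 4 left out. Single genes kept their direction except Krt2 in block A (-0.568) and, in block B, Krt6a (-0.149), Krt14 (-0.0939), Klk7 (-0.000582) and Insig1 (-0.0176). Leaving out 1 library moved the cornified envelope median between 1.20 and 1.86 and the interferon median between -1.08 and -0.47. What depth limits was not tested.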
